A study of Mus musculus with 8 samples.

Results

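The genotype by diet interaction asks, gene by gene, whether microglia that lost PRMT1 answered the cuprizone (CPZ) diet as control microglia did. It is the log2 diet effect in PRMT1Cx3cr1-KO (CPZ CD11c low minus normal diet) minus the log2 diet effect in PRMT1FL (CPZ CD11c low minus normal diet). A negative value means that the gene stood lower in PRMT1Cx3cr1-KO on CPZ than its own normal-diet level and the PRMT1FL diet effect would give. The interaction used 7 of the 8 libraries of the series: 1 of PRMT1Cx3cr1-KO CPZ CD11c low, 2 of PRMT1Cx3cr1-KO on normal diet, 1 of PRMT1FL CPZ CD11c low and 3 of PRMT1FL on normal diet. Of 25192 genes that could be joined over the libraries, 11364 had a mean of at least 10 normalised reads and were tested.

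Microglia are the resident macrophages of the brain, and cuprizone binds copper and, fed to mice, leads to the death of oligodendrocytes and to myelin loss, whose debris microglia take up. PRMT1 transfers methyl groups to arginine residues of histones and other proteins. During demyelination some microglia put CD11c, the product of Itgax, on their surface and switch on interferon, antigen presentation and lipid handling genes. The cells were C57BL/6 microglia sorted from brain by CD45 and CD11b. All mice carried floxed Prmt1 alleles, and only PRMT1Cx3cr1-KO mice also carried the tamoxifen-inducible Cre driven from the Cx3cr1 locus. According to the study's methods both genotypes were injected with tamoxifen before the diet began. The CPZ chow contained 0.2% cuprizone. On CPZ the time label reads 5 weeks, on normal diet it reads 11 weeks, with no starting point, and the normal-diet titles name no CD11c gate. Diet, gate and week label cannot be told apart, nor can loss of PRMT1 and presence of the Cre driver. The origin of the replicates, from separate animals or from pools, is not given in the labels, so the p-values reflect only how far these libraries differ, and that may be technical. Each CPZ group is 1 library. The spread behind every test came from the 5 normal-diet libraries, and the CPZ libraries were assumed to vary like them.

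Between 2482108 and 3515971 reads were assigned to genes per library, and between 10599 and 11327 genes reached 10 reads in all libraries but that of PRMT1FL on CPZ, where 12223 did. Values below are normalised reads, that is, recovered whole reads divided by a size factor per library. All 12 microglia markers were read in every library. Their sum was 58.6 per 10000 reads in PRMT1Cx3cr1-KO on CPZ, 55.6 and 59.6 in PRMT1Cx3cr1-KO on normal diet, 50.8 in PRMT1FL on CPZ and 59.3 to 72.7 in PRMT1FL on normal diet. Prmt1 itself (NR_045521, chromosome 7, 44976755 to 44986420, GRCm38) had 85 reads in PRMT1Cx3cr1-KO on CPZ, 77 and 97 on normal diet, and in PRMT1FL 158 on CPZ and 74, 82 and 111 on normal diet. The count takes in exons that recombination leaves in place and so does not check the deletion. The interaction of Prmt1 was -0.19 ± 0.309 (SE, adjusted p = 0.795).

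How many genes answered the diet differently in the 2 genotypes? Limma called 19 genes higher and 83 lower, that is 0.167% and 0.73% of the genes tested, at a Benjamini-Hochberg adjusted p under 0.05 and an absolute log2 over 1. At unadjusted p under 0.05 there were 1216 higher and 852 lower. Of the 11364 genes tested, 6260 lay above 0 and 5104 below, and the counts given for lists are to be read against these. In the same fit the diet effect in PRMT1Cx3cr1-KO was called higher for 558 genes (4.91%) and lower for 393 (3.46%), and in PRMT1FL higher for 966 (8.5%) and lower for 471 (4.14%). The diet effects of the genotypes share no library. Over the 11364 genes they correlated with Pearson's r 0.636 and Spearman's rho 0.551, a description across genes, which are not independent replicates. Both genotypes were called higher for 415 genes, 74.4% of the PRMT1Cx3cr1-KO calls and 43.0% of the PRMT1FL calls, and both lower for 126, 32.1% and 26.8% of the calls in the same order. Calls in opposite directions were made for 22 genes, 20 of them lower in PRMT1Cx3cr1-KO and higher in PRMT1FL.

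Of the 83 genes with a lower interaction, 50 were called higher by diet in PRMT1FL, 40 were called lower by diet in PRMT1Cx3cr1-KO, 15 were both and 8 were neither. Of the 19 with a higher interaction, 14 were called lower by diet in PRMT1FL and 1 was called higher by diet in PRMT1Cx3cr1-KO. The higher group was thus mostly made of genes that fell in PRMT1FL on CPZ and showed no such call in PRMT1Cx3cr1-KO. The difference between genotypes on normal diet was called by limma for 0 of the 11364 genes, with 990 at unadjusted p under 0.05. EdgeR called 0 and DESeq2 7, and limma without PRMT1Cx3cr1-KO replicate 2 called 15 higher and 24 lower. The number of calls depended on single normal-diet libraries. Without PRMT1Cx3cr1-KO replicate 2 there were 3 higher and 16 lower, without PRMT1FL replicate 1 there were 42 and 190, without PRMT1FL replicate 2 there were 9 and 50, and without PRMT1FL replicate 3 there were 49 and 89. Of the 102 called genes, 15 (13 lower and 2 higher) were called whichever normal-diet library was left out. Among them were S100a9, Ltf, Lcn2, S100a8, Ngp, Nr4a3, H2-Q6, Sdc4, Grk3, Sema4b and Plxna1, which the naming rule covers, and Prkab2 and Arl5c, chosen after their values were seen. Leaving out PRMT1Cx3cr1-KO replicate 2 ended the call of 85 genes and PRMT1FL replicate 2 that of 49. Of the 83 lower genes, 4 (among them Hp and Dmd) averaged under 10 normalised reads over the normal-diet libraries and were tested only because of their level in PRMT1FL on CPZ, so they had to differ. With the filter set on the 5 normal-diet libraries alone, 23 genes were called higher and 87 lower, and the medians of the neutrophil and of the endothelial and mural list, described below, were -5.29 and -1.76.

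**Figure D1:**
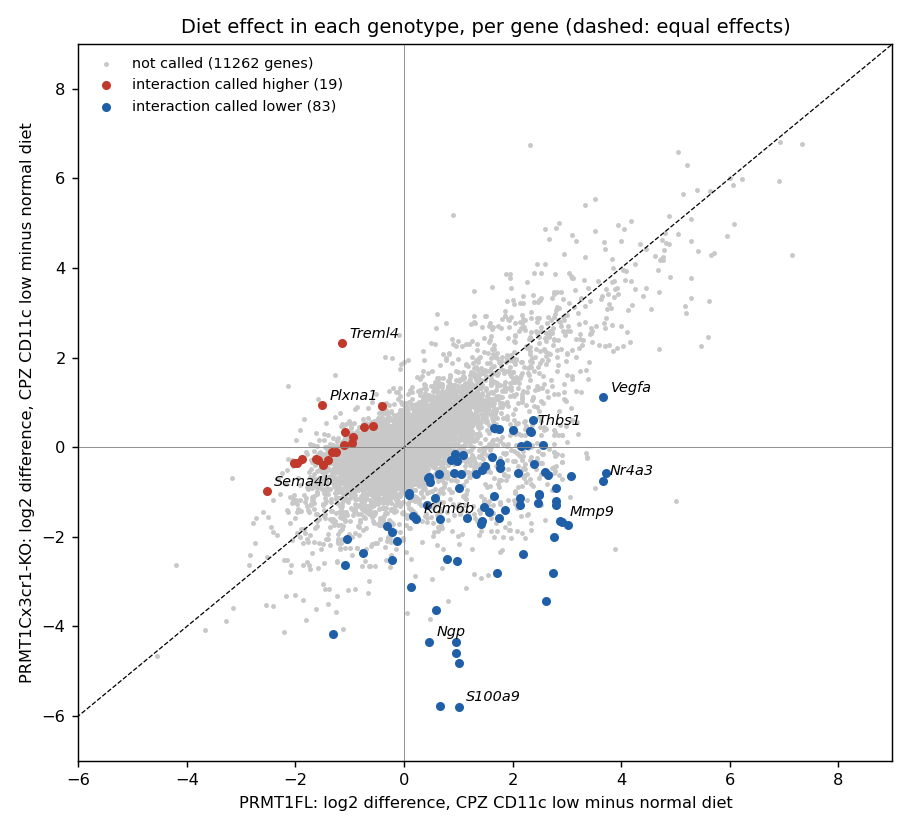
Each point is 1 of the 11364 genes tested, with the log2 diet effect in PRMT1Cx3cr1-KO on the vertical axis and that in PRMT1FL on the horizontal axis. Blue points (83 genes) have a lower and red points (19 genes) a higher interaction. The blue points lie below the dashed line of equal effects, and the red points above it, mostly left of 0 on the horizontal axis.

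Upstream sequences are shown for 4 genes of the lower group described below (an IkB gene, an interferon-induced gene, an MHC class I gene and a cell surface gene). The kB pattern was searched since the lower group includes NF-kB genes. These 4 genes were picked because their promoters hold it, so the display says nothing about its frequency. Each is the stretch before the annotated start on the gene's own strand, from RefSeq on GRCm38.p6, with matches to the kB motif GGGNNNTTCC (either strand) in capitals. The motif is the letter pattern bound by NF-kB dimers.
Nfkbie (chr17:45555450-45555699, plus strand): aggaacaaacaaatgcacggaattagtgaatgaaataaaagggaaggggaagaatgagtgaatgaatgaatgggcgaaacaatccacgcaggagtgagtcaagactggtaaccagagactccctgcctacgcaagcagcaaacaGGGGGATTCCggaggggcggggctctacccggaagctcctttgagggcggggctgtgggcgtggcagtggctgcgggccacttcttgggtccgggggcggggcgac
Gbp5 (chr3:142496684-142496933, plus strand): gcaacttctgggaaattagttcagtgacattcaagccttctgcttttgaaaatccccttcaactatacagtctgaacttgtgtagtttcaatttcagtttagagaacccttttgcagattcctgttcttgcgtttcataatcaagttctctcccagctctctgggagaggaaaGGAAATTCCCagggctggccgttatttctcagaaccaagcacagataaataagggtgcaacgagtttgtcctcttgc
H2-Q4 (chr17:35379367-35379616, plus strand): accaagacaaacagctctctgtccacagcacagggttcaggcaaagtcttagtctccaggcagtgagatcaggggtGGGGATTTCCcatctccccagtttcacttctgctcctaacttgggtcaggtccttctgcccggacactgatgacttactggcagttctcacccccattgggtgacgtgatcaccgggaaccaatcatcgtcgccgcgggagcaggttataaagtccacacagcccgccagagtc
Sdc4 (chr2:164443189-164443438, minus strand): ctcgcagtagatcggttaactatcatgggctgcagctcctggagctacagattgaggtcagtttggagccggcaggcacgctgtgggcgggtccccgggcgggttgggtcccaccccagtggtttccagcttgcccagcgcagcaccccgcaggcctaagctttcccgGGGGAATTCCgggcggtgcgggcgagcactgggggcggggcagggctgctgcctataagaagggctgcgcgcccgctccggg
The matches begin 106, 77, 174 and 82 bases before the start of Nfkbie, Gbp5, H2-Q4 and Sdc4. In windows of 300 bases (250 before and 50 after the start), 10 of 61 lower genes with a RefSeq promoter held the kB pattern (16.4%), 0 of 16 higher genes did, while 662 of all 9101 tested genes with a promoter did (7.27%). The 10 were Nfkbie, Gbp5, H2-Q4, Sdc4, Gpr132, Arl5b, Mxd1, Map1a, Septin4 and Slc7a10, the last of which the astrocyte list holds. The called NF-kB list genes Nfkbib and Bcl3, described below, were not among them. The cyclic AMP pattern TGACGTCA stood in 3.28% of the lower genes and 3.65% of all, the interferon pattern (GAAA, 2 bases of any kind, GAAA) in 4.92% and 3.8%, and the AP-1 pattern TGANTCA in 9.84% and 5.9%. Among the 16 higher genes the shares of these patterns were 0%, 6.25% and 18.8% in the same order. Both strands were searched, patterns may overlap, and a match describes letters, not a site in use.

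NF-kB genes and their inhibitors had lower interactions as a list. NF-kB is held in the cytoplasm by IkB proteins, whose own genes it switches on in turn. Of the 42 genes on the list 37 were tested, 3 were called lower and 0 higher, and 33 of 37 lay below 0, with a median interaction of -0.63 against 0.06 over all genes tested. At unadjusted p under 0.05 there were 17 lower and 0 higher. Over all 11364 genes tested, 5104 lay below 0, and 852 were lower and 1216 higher at that level. The calls in the NF-kB list were Nfkbie (IkB epsilon), Nfkbib (IkB beta) and Bcl3 (an IkB family coactivator). Nfkbie had 250 normalised reads in PRMT1Cx3cr1-KO on CPZ and 399 and 469 on normal diet, against 495 in PRMT1FL on CPZ and 387, 327 and 354 on normal diet. Its level thus lay under both normal-diet libraries in PRMT1Cx3cr1-KO and above all 3 in PRMT1FL (interaction -1.27 ± 0.198, SE, limma adjusted p = 0.0207). Bcl3 had 89.0 in PRMT1Cx3cr1-KO on CPZ and 82.7 and 130 on normal diet, against 291 in PRMT1FL on CPZ and 94.1, 91.5 and 97.0 on normal diet (-1.84 ± 0.337, adjusted p = 0.0368). Nfkbib, at 194 in PRMT1Cx3cr1-KO on CPZ and 398 in PRMT1FL on CPZ, had an interaction of -1.14 ± 0.196 (adjusted p = 0.0296). Bcl3 and Nfkbib lost their call without PRMT1Cx3cr1-KO or PRMT1FL replicate 2, Bcl3 also without PRMT1FL replicate 3, and Nfkbie without PRMT1Cx3cr1-KO replicate 2.

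Nr4a3, Sdc4 and Dusp2 were called lower in the interaction and higher by diet in PRMT1FL. Nr4a3 (chromosome 4, 48045305 to 48086446), an immediate early nuclear receptor gene, had 40.9 in PRMT1Cx3cr1-KO on CPZ and 53.4 and 89.4 on normal diet, against 495 in PRMT1FL on CPZ and 45.8, 31.7 and 38.6 on normal diet. Its PRMT1FL diet effect was a log2 of 3.66, while the PRMT1Cx3cr1-KO library lay below both of its normal-diet libraries (interaction -4.40 ± 0.456, SE, limma adjusted p = 0.00357). Sdc4 (chromosome 2, 164424247 to 164443188), which encodes the cell surface proteoglycan syndecan-4, had 285 in PRMT1Cx3cr1-KO on CPZ and 454 and 413 on normal diet, against 860 in PRMT1FL on CPZ and 307, 333 and 389 on normal diet (-1.93 ± 0.206, adjusted p = 0.00357). Both were called in every alternative. Dusp2, a phosphatase that switches off MAP kinases, had 206 in PRMT1Cx3cr1-KO on CPZ and 609 in PRMT1FL on CPZ, with 257 and 300, and 277, 201 and 178, on normal diet in that order of genotypes (-1.92 ± 0.303, adjusted p = 0.0207). Pde4b, a cyclic AMP phosphodiesterase gene (-1.25 ± 0.187), and Pim1, a kinase gene (-1.22 ± 0.219), were, with Sdc4 and Dusp2, among the most abundant lower genes called higher by diet in PRMT1FL. The calls of Dusp2, Pde4b and Pim1 ended without PRMT1Cx3cr1-KO replicate 2. The immediate early list as a whole had 2 of 31 tested members called lower by limma (Nr4a3 and Dusp2). EdgeR called 6 lower and DESeq2 3, with 0 higher by either. The list had a median of 0.10, which was below 0 under total-read scaling and quantile normalization. By limma at unadjusted p under 0.05, 10 members were lower and 3 higher. Over all genes tested, 852 were lower and 1216 higher at that level.

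Genes of secreted factors were also called lower. Vegfa, the vascular growth factor gene, had 117 in PRMT1Cx3cr1-KO on CPZ and 43.9 and 65.2 on normal diet, against 418 in PRMT1FL on CPZ and 33.1, 30.5 and 32.3 on normal diet. It rose in both genotypes, by a log2 of 1.12 in PRMT1Cx3cr1-KO (adjusted p = 0.0198) and 3.67 in PRMT1FL (adjusted p = 1.13e-05), and the interaction was -2.55 ± 0.382 (adjusted p = 0.0195). Thbs1, whose product thrombospondin-1 can activate latent TGF-beta, had 227 in PRMT1Cx3cr1-KO on CPZ and 166 and 186 on normal diet, against 816 in PRMT1FL on CPZ and 206, 133 and 157 on normal diet (-1.95 ± 0.296, adjusted p = 0.0195). Vegfa was the 1 call among 40 tested disease-associated microglia genes (median 0.24, 22 members called higher by diet in each genotype). Over all genes tested, 4.91% were called higher by diet in PRMT1Cx3cr1-KO and 8.5% in PRMT1FL. Thbs1 was the 1 call among 24 TGF-beta pathway genes (median 0.18, below 0 under quantile normalization). Both calls ended without PRMT1Cx3cr1-KO replicate 2.

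In another class of lower genes the diet effect was called lower in PRMT1Cx3cr1-KO. Kdm6b, which encodes a demethylase of histone H3 lysine 27, had 670 in PRMT1Cx3cr1-KO on CPZ and 1940 and 2111 on normal diet, against 1950 in PRMT1FL on CPZ and 1749, 1471 and 1784 on normal diet. The diet effect was a log2 of -1.59 in PRMT1Cx3cr1-KO and 0.23 in PRMT1FL (interaction -1.82 ± 0.226, SE, limma adjusted p = 0.00788). Grk3, a kinase gene for activated G protein-coupled receptors, had 162 in PRMT1Cx3cr1-KO on CPZ and 571 and 536 on normal diet, against 461 in PRMT1FL on CPZ and 528, 571 and 614 on normal diet (-1.46 ± 0.176, adjusted p = 0.00781). Kdm6b lost its call without PRMT1Cx3cr1-KO replicate 2, whereas Grk3 was called in every alternative. Among the other abundant members of this class, Dusp8, a MAP kinase phosphatase gene, had 96.4 in PRMT1Cx3cr1-KO on CPZ and 379 and 447 on normal diet, against 270 in PRMT1FL on CPZ and 364, 205 and 342 on normal diet (-1.96 ± 0.380). Arl5b, a small GTPase gene (-1.16 ± 0.206), fell by a log2 of 1.06 in PRMT1Cx3cr1-KO on CPZ. Leaving out PRMT1Cx3cr1-KO replicate 2 ended the calls of Dusp8 and Arl5b, as did PRMT1Cx3cr1-KO replicate 1 for Dusp8 and PRMT1FL replicate 2 for Arl5b.

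Interferon-stimulated genes leaned the same way with few calls. Of 60 tested, 52 lay below 0, the median interaction was -0.55 against 0.06 over all genes, and Gbp5 was called lower. The diet effect was called higher for 22 of the 60 in PRMT1Cx3cr1-KO and 39 of the 60 in PRMT1FL. Over all genes tested these shares were 4.91% and 8.5%. Gbp5, a guanylate-binding protein gene that interferon gamma induces, had 70.2 in PRMT1Cx3cr1-KO on CPZ and 180 and 136 on normal diet, against 224 in PRMT1FL on CPZ and 127, 161 and 165 on normal diet. It fell by a log2 of 1.15 in PRMT1Cx3cr1-KO and had 0.58 in PRMT1FL (interaction -1.72 ± 0.297, adjusted p = 0.0296). The call ended without PRMT1FL replicate 2. Among members that did not pass, Isg15, a ubiquitin-like modifier gene, had 63.9 in PRMT1Cx3cr1-KO on CPZ and 170 in PRMT1FL on CPZ (interaction -2.03 ± 0.541, adjusted p = 0.0967), and Oas2, a sensor gene for double-stranded RNA, had 98.5 and 403 in the same order (-2.20 ± 0.490, adjusted p = 0.0641). Both were picked for mention after their values were seen. EdgeR called both lower and DESeq2 called Oas2.

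**Figure D2:**
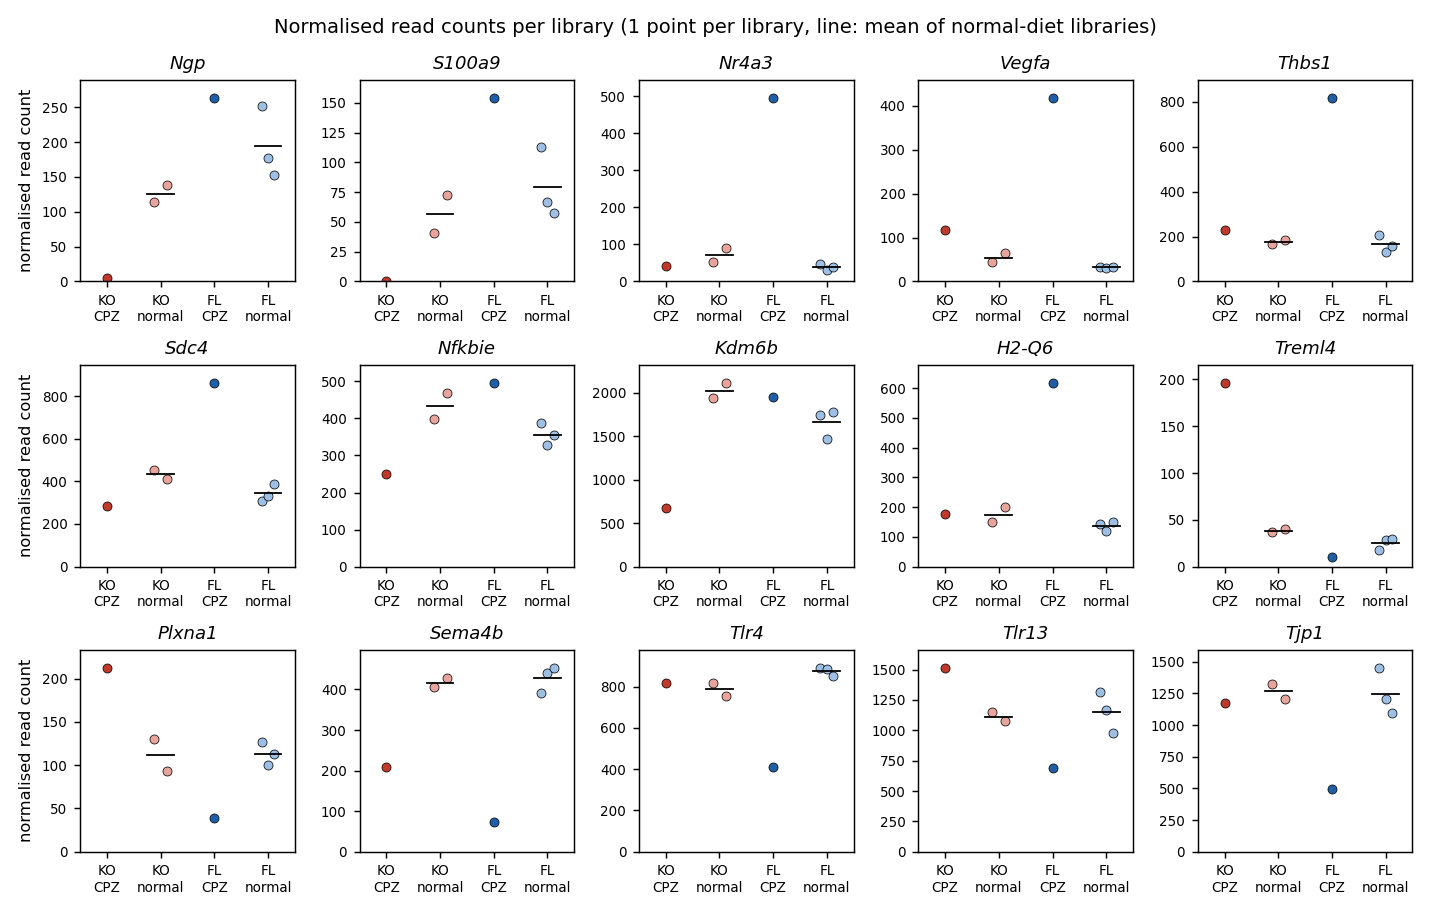
Normalised read counts of 15 genes, 1 point per library, on linear axes that start at 0, with KO for PRMT1Cx3cr1-KO, FL for PRMT1FL and the mean of normal-diet libraries as a line. Nr4a3, Vegfa, Thbs1 and H2-Q6 are high in PRMT1FL on CPZ (495, 418, 816 and 617), whereas Kdm6b is low in PRMT1Cx3cr1-KO on CPZ (670) and Tlr4 in PRMT1FL on CPZ (409).

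MHC class I genes of the H2-Q cluster had lower interactions. H2-Q6 had 176 in PRMT1Cx3cr1-KO on CPZ and 149 and 199 on normal diet, against 617 in PRMT1FL on CPZ and 142, 121 and 149 on normal diet (-2.13 ± 0.267, adjusted p = 0.00788). H2-Q4 had 349 in PRMT1Cx3cr1-KO on CPZ and 367 and 410 on normal diet, against 610 in PRMT1FL on CPZ and 357, 285 and 314 on normal diet (-1.09 ± 0.204, adjusted p = 0.0395). Genes of this cluster are close copies that can share reads, so the split between them is uncertain. They were the 2 calls among 26 tested class I and peptide loading genes, 19 of which lay below 0, with a median of -0.35. H2-Q6 was called whichever normal-diet library was left out, while the call of H2-Q4 ended without PRMT1Cx3cr1-KO replicate 2, PRMT1FL replicate 2 or PRMT1FL replicate 3. B2m, the light chain that all class I molecules share, had 560 in PRMT1Cx3cr1-KO on CPZ and 471 in PRMT1FL on CPZ, with an interaction of 0.53 (adjusted p = 0.239). B2m was also picked after its values were seen.

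MHC class II genes did not pass the interaction test of limma, and the call depended on the tool. Of 13 tested, limma called 0, edgeR called H2-Aa lower and DESeq2 called H2-Aa and H2-Eb1 lower. By limma 10 lay below 0, 5 of them at unadjusted p under 0.05, and the median was -0.40, or -0.75 without PRMT1Cx3cr1-KO replicate 1. Class II molecules present peptides to CD4+ T cells, Cd74 is their chaperone and Ciita the transcriptional coactivator of the set. H2-Aa had 82.8 in PRMT1Cx3cr1-KO on CPZ and 176 and 278 on normal diet, against 305 in PRMT1FL on CPZ and 254, 309 and 272 on normal diet (-1.54 ± 0.314, adjusted p = 0.0518). H2-Eb1 had 66.0 in PRMT1Cx3cr1-KO on CPZ and 139 and 268 on normal diet, against 300 in PRMT1FL on CPZ and 254, 306 and 264 on normal diet (-1.66 ± 0.403, adjusted p = 0.0775). Both fell by diet in PRMT1Cx3cr1-KO, by a log2 of 1.41 (adjusted p = 0.0022) and 1.53 (adjusted p = 0.00543). In PRMT1FL their diet effects were 0.14 and 0.13, within the spread of the 3 normal-diet libraries. H2-Ab1 (-0.82 ± 0.254, adjusted p = 0.136), Cd74 (-0.84 ± 0.227, adjusted p = 0.099) and Ciita (-1.67 ± 0.737, adjusted p = 0.263) stayed above the threshold.

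Of the 8 genes the study displays for acetylation at MHC and interferon promoters in the same groups, all had interactions below 0, with a median of -0.90. Limma called 0 of 8, with 6 at unadjusted p under 0.05, while edgeR called 1 and DESeq2 2 (the class II genes above). The study displays them for samples of these groups, so their direction is not independent evidence. Gadd45b, a stress response gene, had 434 in PRMT1Cx3cr1-KO on CPZ and 286 and 289 on normal diet, against 670 in PRMT1FL on CPZ and 263, 222 and 225 on normal diet (-0.91 ± 0.188, adjusted p = 0.0549). Irf1, an interferon regulatory factor gene, had 480 in PRMT1Cx3cr1-KO on CPZ and 502 and 476 on normal diet, against 690 in PRMT1FL on CPZ and 494, 403 and 371 on normal diet (-0.74 ± 0.220, adjusted p = 0.122). Itgax, whose protein set the gate, rose by diet in both genotypes, to 382 in PRMT1Cx3cr1-KO on CPZ and 721 in PRMT1FL on CPZ (-0.89 ± 0.356, adjusted p = 0.227). Ikbke, at 36.7 and 133 in the same order (-1.48 ± 0.783), and Csf1, at 1863 and 2156 (-0.29 ± 0.241), rose by diet in both genotypes too.

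**Figure D3:**
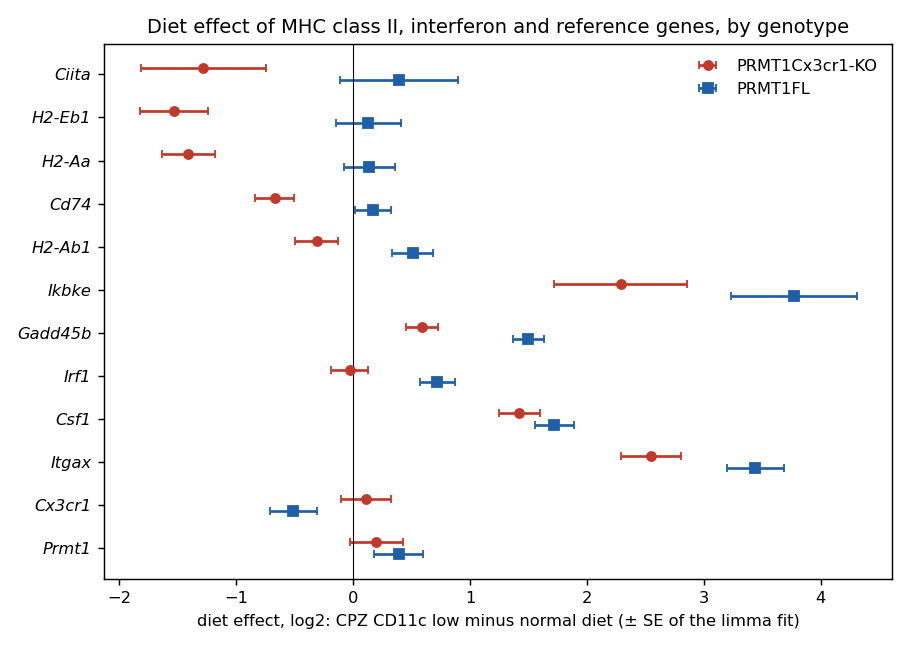
Log2 diet effect (CPZ CD11c low minus normal diet) of 12 genes in PRMT1Cx3cr1-KO (circles) and PRMT1FL (squares), with the SE of the limma fit as bars. For all MHC class II and interferon genes shown the circle lies left of the square, for example -1.41 against 0.14 for H2-Aa, and for Cx3cr1 it lies to the right.

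Among the called genes, the receptor genes Treml4 and Plxna1 had the highest interactions. Treml4 (chromosome 17, 48264295 to 48275358), a receptor gene of the TREM family that is expressed in myeloid cells, had 196 in PRMT1Cx3cr1-KO on CPZ and 37.0 and 40.0 on normal diet, against 10.6 in PRMT1FL on CPZ and 17.8, 28.1 and 29.7 on normal diet. It rose in PRMT1Cx3cr1-KO and fell in PRMT1FL, with an interaction of 3.46 ± 0.529 (SE, limma adjusted p = 0.0195). The call ended without PRMT1Cx3cr1-KO replicate 2. Plxna1 (chromosome 6, 89316314 to 89362613), a semaphorin receptor gene, had 212 in PRMT1Cx3cr1-KO on CPZ and 130 and 93.1 on normal diet, against 39.1 in PRMT1FL on CPZ and 127, 100 and 113 on normal diet (2.44 ± 0.327, adjusted p = 0.0117). Sema4b, a semaphorin gene, had a diet effect of -0.99 in PRMT1Cx3cr1-KO, short of the log2 threshold, and fell in PRMT1FL by 2.52 on the log2 scale. It had 210 in PRMT1Cx3cr1-KO on CPZ and 405 and 429 on normal diet, against 73.4 in PRMT1FL on CPZ and 391, 440 and 452 on normal diet (1.53 ± 0.183, adjusted p = 0.00781). Sema4b was called in every alternative, and Plxna1 in 17 of 18.

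Of the genes with a higher interaction, Tlr4 and Tlr13 encode Toll-like receptors. Tlr4, the lipopolysaccharide receptor gene, had 819 in PRMT1Cx3cr1-KO on CPZ and 819 and 754 on normal diet, against 409 in PRMT1FL on CPZ and 889, 884 and 854 on normal diet (1.16 ± 0.167, adjusted p = 0.0186). Tlr13, which senses bacterial ribosomal RNA in mice, had 1510 in PRMT1Cx3cr1-KO on CPZ and 1149 and 1075 on normal diet, against 687 in PRMT1FL on CPZ and 1312, 1170 and 980 on normal diet (1.18 ± 0.234, adjusted p = 0.0479). They were the 2 calls, both higher, among 34 tested complement, Fc and phagocytic receptor genes (median 0.42, 27 above 0, 14 of them at unadjusted p under 0.05). Tjp1, the tight junction scaffold gene, had 1173 in PRMT1Cx3cr1-KO on CPZ and 495 in PRMT1FL on CPZ, with 1094 to 1448 over the 5 normal-diet libraries (1.22 ± 0.234). Zmat3, an RNA-binding target of p53, had 290 in PRMT1Cx3cr1-KO on CPZ and 127 in PRMT1FL on CPZ (1.31 ± 0.226) and was the 1 call among 20 p53 targets. Zfp111, Zfp169, P2ry10b, Uprt, Zbtb6, Kbtbd7, Rab39 and Sgsh had interactions between 1.08 and 1.65, and none of them was called higher by diet in PRMT1Cx3cr1-KO. P2ry10b has a close copy in the genome and may share reads with it. Except for Sema4b and Plxna1, the call of every gene of this and the preceding paragraph ended without PRMT1Cx3cr1-KO replicate 2. Without PRMT1FL replicate 2 those of Tlr13, Tjp1, Zmat3, Zfp169, Zbtb6, Rab39 and Sgsh ended too, and without PRMT1Cx3cr1-KO replicate 1 those of Tlr13, Tjp1, Zfp169 and Sgsh.

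Homeostatic and cell cycle genes lay mostly above 0, with 0 called by limma, edgeR or DESeq2. Of 34 homeostatic genes tested, which mark microglia of the healthy brain, 32 lay above 0 with a median of 0.56, 15 of them at unadjusted p under 0.05. With quantile normalization the median was 0.25. The lean was not particular to this list. The 12 microglia markers, which share members with it, had a median of 0.58, and all lay above 0. Of the phagolysosome and lipid handling genes 25 of 33 lay above 0, and of the disease-associated microglia genes 26 of 40. Sall1, the transcription factor gene of microglial identity, had 2840 in PRMT1Cx3cr1-KO on CPZ and 3132 and 3084 on normal diet, against 1957 in PRMT1FL on CPZ and 3786, 3522 and 2794 on normal diet (0.64 ± 0.295, adjusted p = 0.282). Cx3cr1, the fractalkine receptor gene whose locus carries the Cre driver, had 2714 in PRMT1Cx3cr1-KO on CPZ and 2441 and 2575 on normal diet, against 2367 in PRMT1FL on CPZ and 3737, 3662 and 2776 on normal diet (0.62 ± 0.297, adjusted p = 0.299). Of 43 cell cycle genes, 38 lay above 0, 5 of them at unadjusted p under 0.05, with a median of 0.60. Over all 11364 genes tested, 6260 lay above 0 and 1216 were higher at that level, a share close to that of the 5 cell cycle genes. The median of the cell cycle list was 0.18 without PRMT1Cx3cr1-KO replicate 1 and 1.03 without PRMT1Cx3cr1-KO replicate 2. The diet effect was called higher for 35 cell cycle genes in PRMT1Cx3cr1-KO and 28 in PRMT1FL, against 4.91% and 8.5% of all genes tested. Mki67, the proliferation marker gene, had 862 in PRMT1Cx3cr1-KO on CPZ and 13.8 and 56.8 on normal diet, against 263 in PRMT1FL on CPZ and 52.2, 25.6 and 37.7 on normal diet. It rose in both genotypes, and its interaction of 2.09 ± 0.862 did not pass (adjusted p = 0.239).

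Several housekeeping and metabolic lists lay near the median of all genes. Oxidative phosphorylation genes had a median of 0.01 over 68 genes, ribosomal protein genes -0.02 over 63, glycolysis and hypoxia genes 0.03 over 22 and the PRMT family -0.03 over 8. None of them held a call by limma, edgeR or DESeq2. Further lists with 0 called by limma, holding 0 to 11 genes at unadjusted p under 0.05 in either direction, had medians from -0.10 to 0.37, namely sterol synthesis (-0.10), ATF4 and serine synthesis (0.14), NRF2 targets (0.29), phagolysosome and lipid handling (0.35) and the unfolded protein response (0.37). Potassium channels and purinergic receptors had 0.14 over 13 genes. Of these lists edgeR called Gclm, an NRF2 target, higher, and DESeq2 called none. In the phagolysosome list, Lrp1, a receptor for lipoproteins and myelin debris, had 5045 in PRMT1Cx3cr1-KO on CPZ and 2787 in PRMT1FL on CPZ (0.96 ± 0.350, adjusted p = 0.191), and Abca1, a cholesterol exporter gene, had 3551 and 2128 in the same order (0.75 ± 0.364, adjusted p = 0.305).

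**Figure D4:**
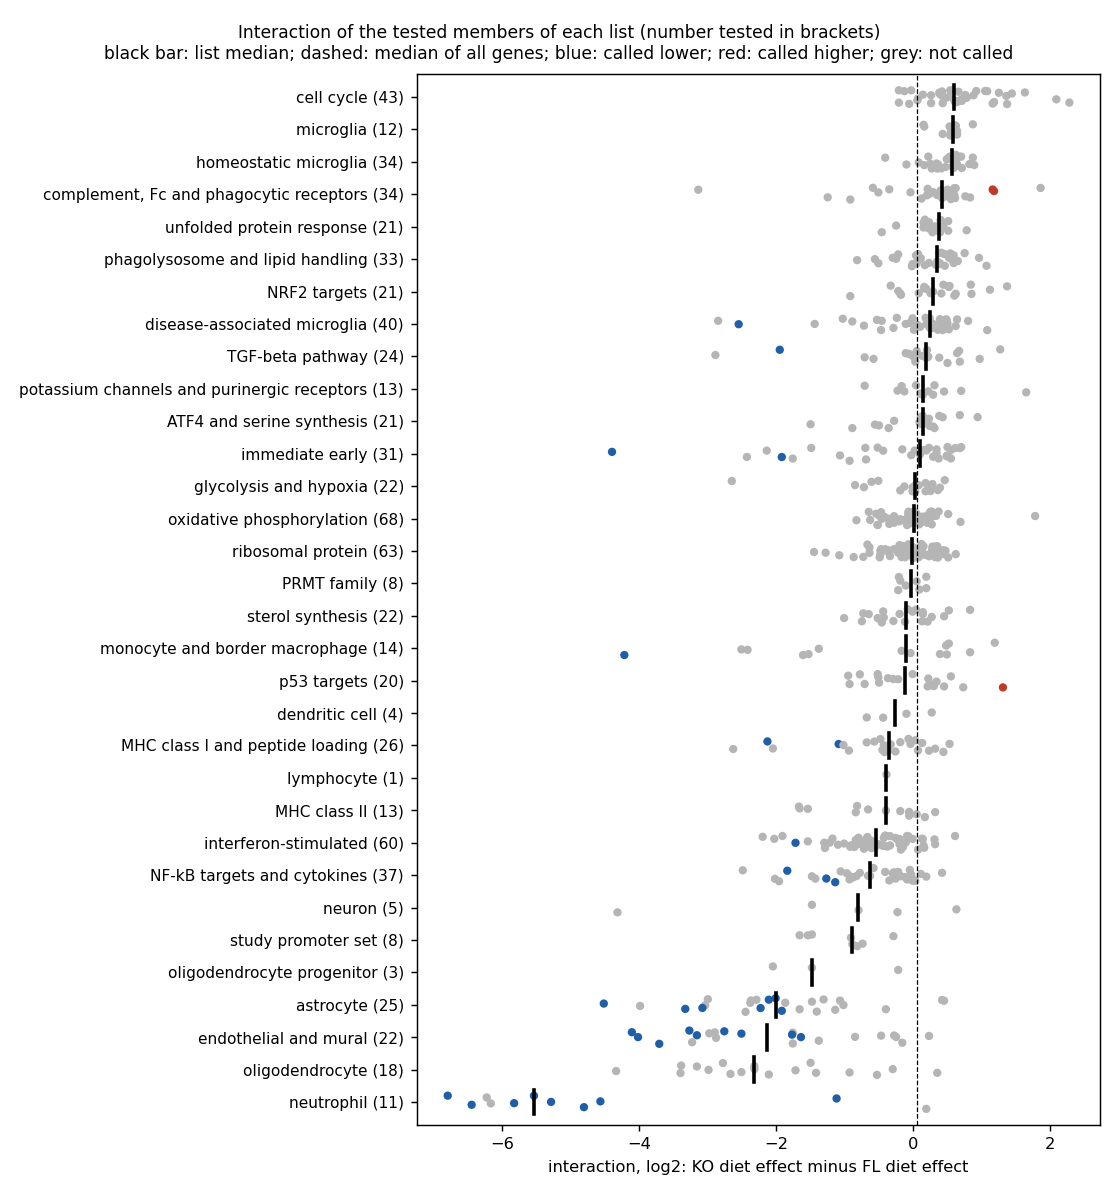
Interaction (log2, horizontal axis) of every tested member of each list, with the list median as a black bar, the median of all genes (0.06) as a dashed line and called genes in blue (lower) or red (higher). Lists of cell types other than microglia lie at the bottom, with medians of -5.54 for neutrophil, -2.32 for oligodendrocyte, -2.14 for endothelial and mural and -2.01 for astrocyte genes, and the NF-kB list is at -0.63.

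Neutrophil granule genes led the lower group by size. Neutrophils store antimicrobial proteins in granules, and their genes were near 0 in PRMT1Cx3cr1-KO on CPZ. S100a9 (chromosome 3, 90692630 to 90695721), a calprotectin subunit gene, had 0 reads in PRMT1Cx3cr1-KO on CPZ and 47 and 78 on normal diet, against 189 in PRMT1FL on CPZ and 89, 55 and 64 on normal diet. Taking 3 reads as the floor for a count of 0, it was at least 17.8-fold lower on CPZ than on normal diet in PRMT1Cx3cr1-KO, and at least 49-fold lower in PRMT1Cx3cr1-KO than in PRMT1FL on CPZ. The fitted interaction was -6.80 and was -4.75 with the floor in place of 0. Ltf (lactoferrin), Lcn2 (lipocalin 2), Camp (cathelicidin) and the acute phase gene Hp (haptoglobin) also had 0 reads in PRMT1Cx3cr1-KO on CPZ, against 176, 90, 65 and 74 reads in PRMT1FL on CPZ. Ngp, a neutrophilic granule protein gene, had 5 reads in PRMT1Cx3cr1-KO on CPZ and 132 and 148 on normal diet, against 322 in PRMT1FL on CPZ and 198, 145 and 170 on normal diet (-4.81 ± 0.377, adjusted p = 0.00104). S100a8 had 1 read in PRMT1Cx3cr1-KO on CPZ, which is 0.0257 times the normal-diet level (exact 95% counting interval 0.000644 to 0.147). Mmp9 had 3, or 0.26 times (0.0505 to 0.845). Chil3, a chitinase-like gene that the monocyte list holds, had 1, or 0.0426 times (0.00106 to 0.247).

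Of the 17 genes on the neutrophil list, 11 were tested and 8 called lower, the median interaction being -5.54, or -4.18 with the floor in place of 0. The 15 members other than Csf3r and Mxd1, which had 208 to 1664 reads in each of the 7 libraries, summed to 11 reads in PRMT1Cx3cr1-KO on CPZ and 344 and 441 on normal diet, against 1380 in PRMT1FL on CPZ and 567, 345 and 452 on normal diet. That split of the list was made after its values were seen. Mpo, Elane, Ly6g, Cxcr2 and Retnlg had 0 reads in PRMT1Cx3cr1-KO on CPZ, and 27, 3, 13, 26 and 91 in PRMT1FL on CPZ. On normal diet they were near 0 as well, with 0 to 2 reads per library in PRMT1Cx3cr1-KO and 0 to 5 in PRMT1FL. Their 0 reads in PRMT1Cx3cr1-KO on CPZ thus show no fall by diet. Of these genes only Retnlg was tested. Mxd1, a repressor gene of the MYC network, had 218 normalised reads in PRMT1Cx3cr1-KO on CPZ and 448 in PRMT1FL on CPZ (-1.12 ± 0.185). Without PRMT1Cx3cr1-KO replicate 2 the calls of Hp, Camp, Mmp9 and Chil3 ended, and without PRMT1FL replicate 2 those of Chil3 and Mxd1. In bulk samples fewer cells of a type and less RNA per cell cannot be told apart.

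Vascular and astrocyte markers were high in the PRMT1FL CPZ library. Of the 22 tested endothelial and mural genes, 9 were called lower in the interaction (median -2.14), and 18 were called higher by diet in PRMT1FL against 1 in PRMT1Cx3cr1-KO. Of the 25 tested astrocyte genes, 7 were called lower (median -2.01), with 20 called higher by diet in PRMT1FL and 0 in PRMT1Cx3cr1-KO. Over all genes tested, 8.5% were called higher by diet in PRMT1FL and 4.91% in PRMT1Cx3cr1-KO. Cldn5, the tight junction gene of brain endothelium, had 16.8 in PRMT1Cx3cr1-KO on CPZ and 28.4 and 24.2 on normal diet, against 140 in PRMT1FL on CPZ and 15.3, 19.5 and 33.2 on normal diet (-3.27 ± 0.630, adjusted p = 0.0427). Vtn (-1.77) and the pericyte genes Rgs5 (-1.64) and Pdgfrb (-2.51) were also called lower, with 96.4, 111 and 40.9 in PRMT1Cx3cr1-KO on CPZ, against 267, 266 and 156 in PRMT1FL on CPZ. Sparcl1, a matricellular protein gene of astrocytes, had 153 in PRMT1Cx3cr1-KO on CPZ and 121 and 120 on normal diet, against 341 in PRMT1FL on CPZ and 58.5, 62.2 and 80.0 on normal diet (-2.01 ± 0.294, adjusted p = 0.0195). Aldoc, a glycolytic enzyme gene (-2.11), and the gap junction gene Gja1 (-1.92) were called lower too. Without PRMT1Cx3cr1-KO replicate 2 the calls of these 7 vascular and astrocyte genes ended, without PRMT1Cx3cr1-KO replicate 1 those of Cldn5, Pdgfrb and Gja1, without PRMT1FL replicate 2 those of Cldn5, Pdgfrb, Gja1 and Rgs5, and without PRMT1FL replicate 3 those of Pdgfrb and Vtn.

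Oligodendrocyte genes had a median of -2.32 over 18 genes with 0 called by limma and 12 below 0 at unadjusted p under 0.05 (edgeR called 0 and DESeq2 1), and neuron genes -0.80 over 5 with 0 called and 1 at that level. Oligodendrocyte progenitor genes had 3 tested (median -1.48) and 0 called by limma, edgeR or DESeq2, with 2 lower at unadjusted p under 0.05. Of the 3 tested, Cspg4 had 1893 in PRMT1Cx3cr1-KO on CPZ and 1150 in PRMT1FL on CPZ. Over the normal-diet libraries of both genotypes it had 11.7 to 28.9, and its interaction was -0.22 (limma adjusted p = 0.808). Cspg4 is also on the phagolysosome and lipid handling list, and the study names it among the transcripts of its phagocytic microglia cluster. Which cells its reads came from was not tested. Monocyte and border macrophage genes had 1 of 14 called lower (Chil3, median -0.11), and dendritic cell genes 0 of 4 (median -0.27). Of the lymphocyte genes 1 was tested, Cd79b (-0.40). Over all lists of other cell types together, 25 of 103 tested genes were called lower and 0 higher, against 0.73% and 0.167% over all genes. Outside those lists were 58 lower and 19 higher genes. Among the lower genes outside those lists, Dmd (dystrophin, -5.56), Tns2 (tensin 2, -4.76), Gpr132, a receptor gene for lysolipids and lactate (-4.76), and Pllp, which encodes the myelin protein plasmolipin (-4.59), had 1 to 7 reads in PRMT1Cx3cr1-KO on CPZ. All these calls ended without PRMT1Cx3cr1-KO replicate 2, those of Dmd and Pllp also without PRMT1Cx3cr1-KO replicate 1, and those of Gpr132 and Pllp also without PRMT1FL replicate 2. The part of other cells in the calls on NF-kB, signalling and MHC genes was not tested.

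**Figure D5:**
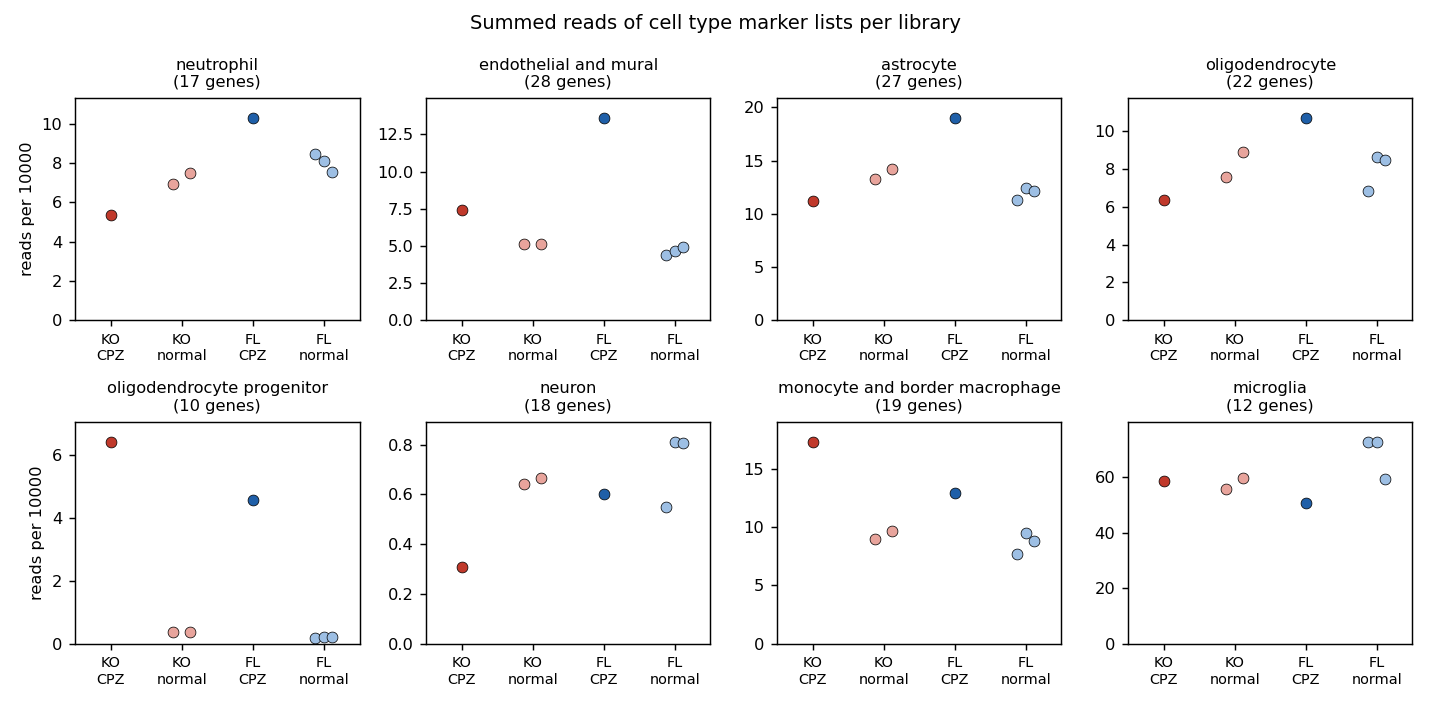
Summed reads of 8 marker lists per 10000 reads, 1 point per library, on linear axes that start at 0. The endothelial and mural sum is 7.43 in PRMT1Cx3cr1-KO on CPZ, 5.12 and 5.10 on normal diet, 13.6 in PRMT1FL on CPZ and 4.39 to 4.89 on normal diet, and the astrocyte sum is 11.2 in PRMT1Cx3cr1-KO on CPZ, 13.3 and 14.2 on normal diet, 19 in PRMT1FL on CPZ and 11.3 to 12.4 on normal diet.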

How the data were processed

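Bulk RNA-seq of sorted mouse microglia was analysed in 7 of 8 libraries, grouped by their titles. The authors trimmed single-end reads of 76 bases, aligned them with Bowtie2, removed duplicates with SAMtools 0.1.19, checked quality with FastQC 0.11.9 and counted genes with HOMER. The strand setting is not given in the sources used here. The methods name hg19, whereas the deposited coordinates are those of mouse genes and are given as GRCm38. The deposited signal is, per gene, a number of reads that the authors multiplied by a factor of the library. Dividing by the step of each column gave whole reads for 100% of values (tolerance 0.1 reads). Tables also held the authors' fold changes and p-values, which were not used. A gene was left out where its recovered reads disagreed across tables beyond 1 read and 5% (46 of 25238).

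Reads were scaled by median of ratios, and genes averaging 10 or more normalised reads in the 7 libraries were tested as log2(normalised count + 1) with limma 3.58.1 in R 4.3.3 (eBayes with trend, residual df 3, two-sided, Benjamini-Hochberg). Fold changes on this scale understate changes of low genes. Medians over 32 lists are descriptions. Counting intervals (95%) and floors (3 reads) cover counting error only. The script was tested on simulated data. The genes, lists and tests were chosen with earlier results of these data known. Named were the 12 highest and 12 lowest called genes, 12 genes of prior interest, up to 4 called or 2 abundant members per list, and the 5 most abundant genes per class of diet effects. Alternatives were scaling, filter, pseudocount, edgeR 4.0.16 and DESeq2 1.42.0 on the recovered reads, 8 libraries, table agreement, a replicate block and each normal-diet library left out. Some genes that the naming rule covers are not reported here.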

Additional observations from a re-analysis of the deposited data

Results flagged for a closer look

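For the genes below the diet effect differed between the genotypes by the interaction term itself (limma, adjusted p under 0.05 and absolute log2 over 1). The values are interactions on the log2 scale. Among neutrophil and related genes they were -6.80 for S100a9, -6.45 for Ltf, -6.06 for Hp, -5.83 for Lcn2, -5.54 for Camp, -5.29 for S100a8, -4.81 for Ngp, -4.57 for Mmp9, -4.22 for Chil3 and -1.12 for Mxd1. The first 5 had 0 reads in PRMT1Cx3cr1-KO on CPZ, so their fitted values are no bounds, and Hp, like Dmd below, passed the filter only through PRMT1FL on CPZ. Vascular and astrocyte genes had -3.27 (Cldn5), -2.51 (Pdgfrb), -2.11 (Aldoc), -2.01 (Sparcl1), -1.92 (Gja1), -1.77 (Vtn) and -1.64 (Rgs5).

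Signalling, NF-kB, MHC and other genes had -5.56 (Dmd), -4.76 (Tns2 and Gpr132), -4.59 (Pllp), -4.40 (Nr4a3), -2.55 (Vegfa), -2.13 (H2-Q6), -1.96 (Dusp8), -1.95 (Thbs1), -1.93 (Sdc4), -1.92 (Dusp2), -1.84 (Bcl3), -1.82 (Kdm6b), -1.72 (Gbp5), -1.46 (Grk3), -1.27 (Nfkbie), -1.25 (Pde4b), -1.22 (Pim1), -1.16 (Arl5b), -1.14 (Nfkbib) and -1.09 (H2-Q4).

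Higher interactions were 3.46 for Treml4, 2.44 for Plxna1, 1.65 for Zfp111, 1.62 for Zfp169, 1.61 for P2ry10b, 1.53 for Sema4b, 1.43 for Uprt, 1.36 for Zbtb6, 1.31 for Zmat3, 1.28 for Kbtbd7, 1.22 for Tjp1, 1.18 for Tlr13, 1.16 for Tlr4, 1.11 for Rab39 and 1.08 for Sgsh. Each CPZ value rests on 1 library per genotype.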

How the results depend on the processing

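All 102 called interactions kept their sign in the 18 alternatives, and 11 were called in every alternative. Each alternative used the same CPZ library of each genotype, and each call had an absolute log2 over 1. A change of sign was therefore unlikely, and a kept sign says little. The counts of calls moved more. Against 19 higher and 83 lower genes, edgeR gave 41 and 181 (which included all 102) and DESeq2 21 and 88 (which included 73 of them). Higher calls numbered 29 with TMM scaling, 56 with quantile normalization and 132 with no filter on low values. Lower calls numbered 151 with total-read scaling, 167 with quantile normalization, 254 with no filter and 48 with a mean of at least 50. Leaving out 1 normal-diet library gave 3 to 49 higher and 16 to 190 lower calls. The median interaction of all genes was -0.08 with total-read scaling and 0.11 with TMM, against 0.06. The replicate block gave 51 higher and 150 lower, but same-numbered libraries correlated by 0.051 and -0.022, so the numbers did not show a pairing. For the diet effect in PRMT1Cx3cr1-KO, higher calls numbered 326 with a mean of at least 50, against 558, and lower calls 239 with that filter, 190 with no filter and 235 with DESeq2, against 393, and 257 to 483 without 1 normal-diet library. For PRMT1FL, higher calls numbered 426 with a mean of at least 50, against 966, and lower calls 784 with quantile normalization, against 471. With the CD11c high library of PRMT1FL in its place, added after the data were seen, 119 higher interactions and 808 lower diet effects in PRMT1FL were called. The causes were not tested, apart from the filters, which change the genes tested.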

Other observations

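The CD11c high library of PRMT1FL on CPZ entered only the alternatives above, and its values here were scaled over 8 libraries. Of the 83 lower genes, 76 were higher there than in PRMT1Cx3cr1-KO on CPZ, and all 19 higher genes were lower there. The PRMT1Cx3cr1-KO CPZ library entered the calls, so the choice of genes largely set these counts, which are no separate evidence. Outside the lists of other cell types, 35 of 58 lower genes lay in the CD11c high library above every PRMT1FL normal-diet library. Within those lists 11 of 25 did. The PRMT1FL normal-diet libraries entered the calls too, so the choice of genes helped to set these counts as well. They were not compared with the share over all genes tested and are no separate evidence. Thbs1 had 967, Sdc4 907, H2-Q6 722, Vegfa 445 and Nr4a3 272 normalised reads in CD11c high cells. The 15 neutrophil genes other than Csf3r and Mxd1 had 45 reads in that library and Cldn5 17.5 normalised reads. With this library in place of the CD11c low one, 21 of the 83 lower and 11 of the 19 higher genes were called again. That contrast used the same PRMT1Cx3cr1-KO CPZ library and the same 5 normal-diet libraries, so it is no independent repeat. It also differs by gate, and the CD11c high library held 1579775 reads.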
